A study of Mus musculus with 4 samples.

Results

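The metal ion solute carriers are membrane proteins that move zinc, iron, copper, manganese and magnesium into and out of the cytosol. They were taken as every probe set whose only gene symbol in the platform annotation is Slc11a1 or Slc11a2 (iron), a member of Slc30a (zinc exporters) or of Slc39a (zinc importers), Slc31a1 or Slc31a2 (copper), Slc40a1 (iron) or Slc41a1 to Slc41a3 (magnesium). This gave 56 of 45037 non-control probe sets and 32 of 18193 genes. RNA was measured on 4 Affymetrix mouse expression arrays, 2 of pseudopodia and 2 of cell bodies of NIH/3T3, an established mouse embryo fibroblast line. In both groups the cells, in medium without serum, had reached for 1 h through a porous membrane towards fibronectin on its lower side, and had been fixed in 0.3% formaldehyde. The pseudopodia were scraped off the lower side after the cell bodies had been wiped away, and the cell bodies off the upper side after the pseudopodia had been wiped away. No allele or other treatment is named for either group, and all arrays come from this 1 cell line. The series' design text calls the replicates independent without naming separate cultures. The p-values therefore reflect how far these samples spread, and that spread may be technical.

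Cells hold free zinc at very low levels. Carriers of the Slc30a family move zinc out of the cytosol, either across the plasma membrane or into the Golgi and vesicles, and carriers of the Slc39a family move it into the cytosol, from outside or from the endoplasmic reticulum and Golgi. Iron enters through Slc11a2 and leaves through ferroportin (Slc40a1), copper enters through Slc31a1, and Slc41 proteins carry magnesium. All of them cross the membrane several times, and those of the plasma membrane, Golgi and vesicles are made at the endoplasmic reticulum. In mice, Slc39a13 is needed for normal connective tissue.

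Messages of metal ion carriers were lower in pseudopodia than in cell bodies or did not pass the test, and none was called higher. Of the 32 genes, each represented by its brightest probe set, 27 passed a filter on dim probe sets (a mean of at least 5.42 on the log2 scale, an intensity of 42.0). Of these, 13 fell, 0 rose and 14 were not called, at an adjusted p under 0.05 in a limma fit over all 11320 tested genes. Over all tested genes 14.6% were called, 5.92% as higher in pseudopodia and 8.69% as lower. The median log2 difference, pseudopodia minus cell body, was -0.76 over the 27 carriers and -0.0020 over all tested genes. The 13 that fell lay 1.78-fold to 2.85-fold lower in pseudopodia, with SEs of 0.13 to 0.18 on the log2 scale and adjusted p-values of 0.0166 to 0.0411. All 13 were above the filter on each of the 4 arrays, so none of them was tested only because it was bright in cell bodies. Slc30a2 and Slc39a5 passed the filter through their pseudopodia arrays alone. Arrays of the compartments did not overlap at 22 of the 27 genes, against 60.8% of all tested genes, and 11 of the 27 were also at least 2-fold apart, against 8.83%. In bulk RNA a smaller amount of a message per protrusion and a smaller part of the protrusions that hold it cannot be told apart.

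**Figure D1:**
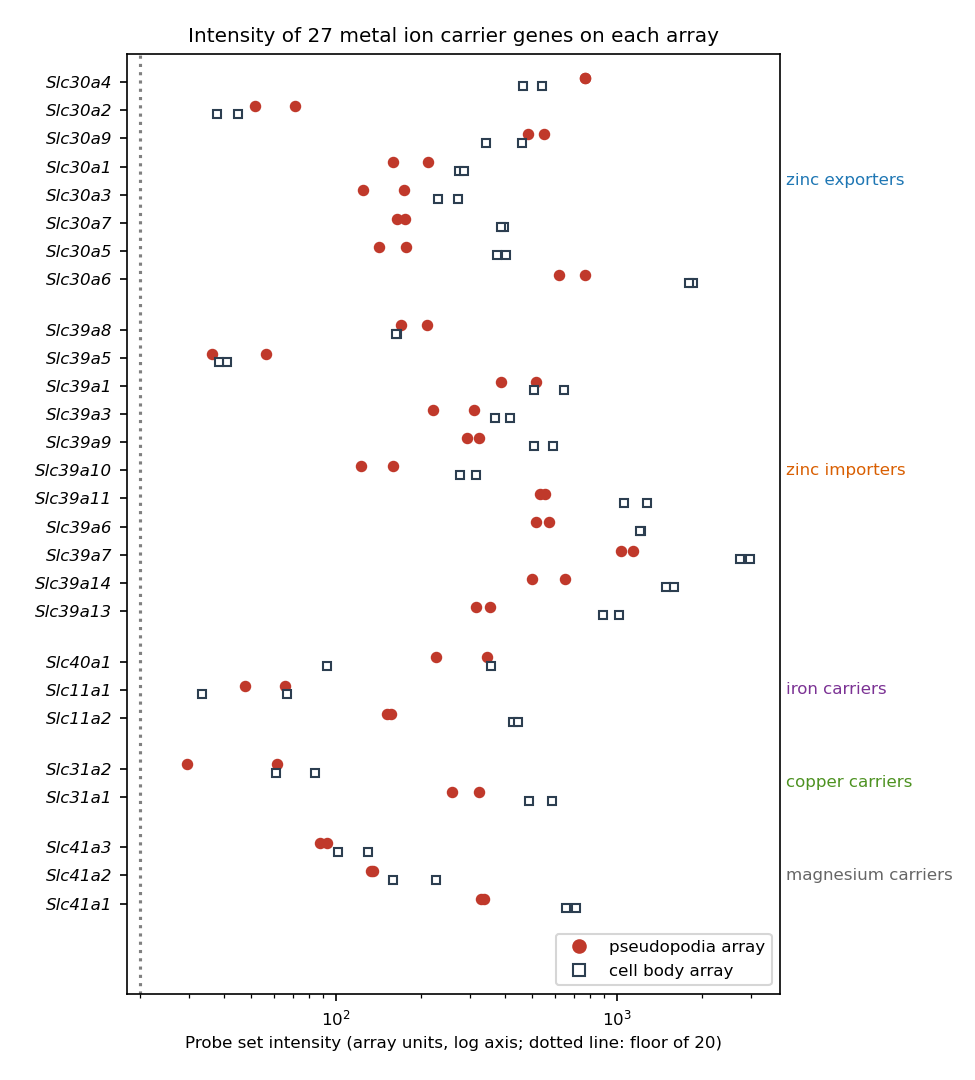
Probe set intensity (log axis, array units) of the 27 tested metal ion carrier genes, with 1 filled circle for each of 2 pseudopodia arrays and 1 open square for each of 2 cell body arrays, grouped by carrier class. The circles of Slc39a7, Slc30a6, Slc39a13, Slc39a14 and Slc11a2 lie well left of their squares, while those of Slc30a4 lie to the right.

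The calls needed all 4 arrays. After leaving out any 1 of them, 0 of 11320 genes and thus 0 carriers were called by limma, while 14 to 16 carriers were lower and 1 to 3 higher at an unadjusted p under 0.05. Without the filter on dim probe sets it called 2 genes and 0 carriers, with 13 carriers lower and 2 higher at an unadjusted p under 0.05.

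Solute carriers of the other families, Slc25 left aside, also fell more often than they rose. Of 125 tested of these genes, 48 fell and 3 rose, against 8.69% lower and 5.92% higher of all tested genes. Their median log2 difference was -0.52. Of 35 tested Slc25 genes, the carriers of the mitochondrial inner membrane, 0 fell and 1 rose, with a median of -0.0044 (limma, adjusted p over all genes). No difference between these families was tested.

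**Figure D2:**
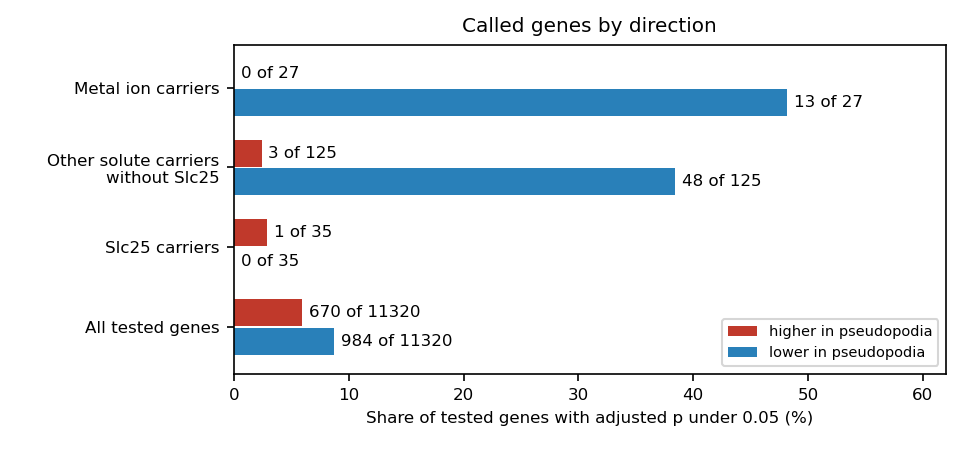
Share of tested genes (%) called higher (upper bar) or lower (lower bar) in pseudopodia at an adjusted p under 0.05, with counts beside the bars. Metal ion carriers had 0 higher and 13 lower of 27, other solute carriers without Slc25 3 higher and 48 lower of 125, Slc25 carriers 1 higher and 0 lower of 35, and all tested genes 670 higher and 984 lower of 11320.

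Among the zinc exporters, the 3 that fell were Slc30a5, Slc30a6 and Slc30a7, which bring zinc into the Golgi and the rest of the early secretory pathway, where Slc30a5 and Slc30a6 work as a pair. The other 5 of 8 tested exporters were not called, and the class had a median log2 difference of -0.68. Over all tested genes, 8.69% were called lower and 5.92% higher. Slc30a6 read 623 and 769.9 on the pseudopodia arrays, against 1864 and 1799 on the cell body arrays. Its log2 difference was -1.40 (SE 0.16, adjusted p = 0.0166 by limma). Slc30a5 read 177 and 142 in pseudopodia, against 402 and 374 in cell bodies, a log2 difference of -1.29 (SE 0.16, adjusted p = 0.0180 by limma). In both genes every pseudopodia array lay below every cell body array, by more than the spread within a compartment. Slc30a7 read 165 and 176 in pseudopodia, against 396 and 385 in cell bodies, a log2 difference of -1.19 (SE 0.13, adjusted p = 0.0166 by limma). Its second probe set had a smaller log2 difference of -0.51, with no overlap of arrays, and did not pass (adjusted p = 0.0857 in the limma fit over single probe sets).

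The exporter of the plasma membrane, Slc30a1, differed between its probe sets. The brighter one read 160 and 212 in pseudopodia, against 274 and 285 in cell bodies, a log2 difference of -0.60 (SE 0.18, adjusted p = 0.0945 by limma). The dimmer one read 75.8 and 78.4 in pseudopodia, against 211 and 223 in cell bodies. In the fit over single probe sets, the dimmer one fell by 1.48 on the log2 scale (SE 0.14, adjusted p = 0.0241 by limma). Both probe sets thus had negative differences with no overlap of arrays, and they disagreed on the size. Slc30a3, which loads zinc into synaptic vesicles of neurons, read 125 and 174 in pseudopodia, against 230 and 271 in cell bodies, a log2 difference of -0.76 (SE 0.21, adjusted p = 0.0799 by limma). Its adjusted p fell under 0.05 with the stricter filter (0.0396), the replicate block (0.0322) and the trended robust prior (0.0433). That of the brighter Slc30a1 probe set did so with the stricter filter (0.0493), as did that of Slc30a1 with the mean of its probe sets (0.0153).

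The remaining tested exporters had positive differences that did not pass the test. Slc30a4, which loads zinc into endosomes and vesicles and is needed for zinc in mouse milk, read 766 and 770.2 in pseudopodia, against 541 and 463 in cell bodies. Its log2 difference was 0.62 (SE 0.14, adjusted p = 0.0539 by limma). It lay just outside the threshold. Of 9 alternative settings with all 4 arrays, 7 brought its adjusted p under 0.05 by limma, with a range of 0.0161 to 0.136. With 1 array left out, its log2 difference was 0.50 to 0.73. Slc30a9, known for mitochondrial zinc, read 550.2 and 483 in pseudopodia, against 458 and 342 in cell bodies, a log2 difference of 0.38 (SE 0.19, adjusted p = 0.259 by limma). Slc30a2, a vesicular exporter of the mammary gland, was dim, at 51.5 and 71.3 in pseudopodia, against 44.9 and 37.7 in cell bodies, and had a log2 difference of 0.55 (adjusted p = 0.155 by limma).

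**Figure D3:**
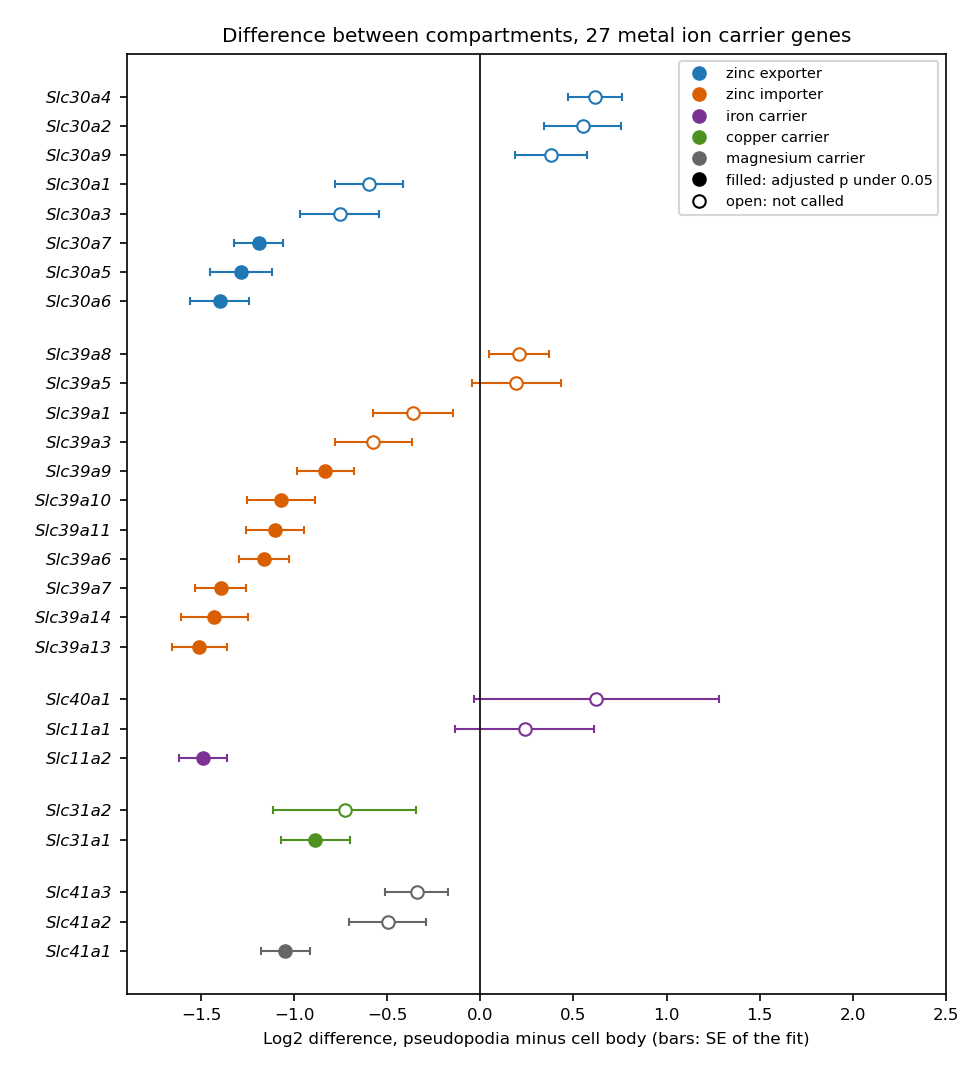
Log2 difference between compartments, pseudopodia minus cell body, of the 27 tested carrier genes (points, with bars for the SE of the limma fit on 2 arrays per compartment), coloured by class and filled where the adjusted p was under 0.05. Filled points lie between -1.51 and -0.83, and all 7 genes with differences above 0 are open.

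Slc30a1 is a textbook target of the zinc sensor Mtf1, which binds metal response elements in promoters. The 250 bases before the start are therefore shown for Slc30a1, for Slc30a4, the exporter with the highest difference among zinc carriers, and for Slc39a13, the carrier with the lowest, in lower case with the core of the element in capitals. The sequences are from RefSeq, build GRCm38.p6, each on its gene's strand and 5′ to 3′, and the genes were chosen after their values were seen. The window of Slc30a4 is chr2:122702664-122702913 (minus strand), that of Slc30a1 chr1:191906531-191906780 (plus strand) and that of Slc39a13 chr2:91070316-91070565 (minus strand).
Slc30a4: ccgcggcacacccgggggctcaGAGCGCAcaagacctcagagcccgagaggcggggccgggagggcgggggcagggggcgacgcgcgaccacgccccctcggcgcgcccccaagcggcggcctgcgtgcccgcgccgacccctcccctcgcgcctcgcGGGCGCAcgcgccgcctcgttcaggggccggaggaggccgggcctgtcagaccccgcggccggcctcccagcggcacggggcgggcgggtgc
Slc30a1: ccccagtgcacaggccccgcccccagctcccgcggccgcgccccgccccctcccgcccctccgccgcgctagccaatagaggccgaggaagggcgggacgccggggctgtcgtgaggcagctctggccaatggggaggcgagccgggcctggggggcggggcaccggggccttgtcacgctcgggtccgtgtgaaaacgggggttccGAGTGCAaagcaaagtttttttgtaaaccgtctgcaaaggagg
Slc39a13: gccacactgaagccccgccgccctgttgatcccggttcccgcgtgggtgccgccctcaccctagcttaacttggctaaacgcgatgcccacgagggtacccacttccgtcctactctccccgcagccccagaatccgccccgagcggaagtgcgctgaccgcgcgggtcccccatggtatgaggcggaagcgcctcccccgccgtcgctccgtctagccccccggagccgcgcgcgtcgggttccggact

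The core was searched as TGCACNC or TGCGCNC on both strands, where overlapping matches were allowed. Slc30a4 held 2 matches, at positions 23 and 159 of its window, Slc30a1 held 1, at position 208, and Slc39a13 held 0, which says only that these letters are not in this window. Of all 32851 windows in the table, 21.4% held at least 1 match, and so did 15 of the 31 windows found for 26 carrier genes. A match is a run of letters and not a measured binding site, and the arrays measured where messages lay, not promoter activity.

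Zinc importers, the largest class tested, also held the most members that fell. Of 11 tested, 7 fell, 0 rose and 4 were not called, against 8.69% lower and 5.92% higher of all tested genes. The class had a median log2 difference of -1.07. Slc39a13, which releases zinc from the Golgi and vesicles and is mutated in a form of Ehlers-Danlos syndrome, had the lowest difference of all 27 carriers. It read 316 and 353 in pseudopodia, against 889.7 and 1019 in cell bodies, a log2 difference of -1.51 (SE 0.15, adjusted p = 0.0166 by limma). Slc39a7, which releases zinc from the endoplasmic reticulum, read 1036 and 1136 in pseudopodia, against 2973 and 2742 in cell bodies, a log2 difference of -1.40 (SE 0.14, adjusted p = 0.0166 by limma). For both importers of the secretory pathway, the compartments were far apart next to the spread within each. The only probe set of Slc39a7 is of a kind (ending in _s_at) that can match several transcripts.

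Slc39a14, which also carries iron and manganese, read 498 and 654 in pseudopodia, against 1490 and 1591 in cell bodies. Its log2 difference was -1.43 (SE 0.18, adjusted p = 0.0178 by limma), while its second probe set above the filter had -0.60 (SE 0.35, adjusted p = 0.340 in the fit over single probe sets). Slc39a8, which carries the same metals, read 170.3 and 211 in pseudopodia, against 164 and 164 in cell bodies, and was not called, at a log2 difference of 0.21 (SE 0.16, adjusted p = 0.447 by limma). Thus the importers that share zinc, iron and manganese gave a call in one case and none in the other, and that difference between genes was not tested.

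The plasma membrane importers Slc39a6 and Slc39a10, which form a complex, both fell. Slc39a6 read 570.4 and 513 in pseudopodia, against 1216 and 1210 in cell bodies, a log2 difference of -1.16 (SE 0.13, adjusted p = 0.0166 by limma). Slc39a10 read 159 and 123 in pseudopodia, against 276 and 316 in cell bodies, a log2 difference of -1.07 (SE 0.18, adjusted p = 0.0270 by limma). Neither gene overlapped between compartments. The second probe set of Slc39a6 above the filter also fell, at a log2 difference of -0.90 (SE 0.15, adjusted p = 0.0350 in the fit over single probe sets).

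The importers of the Golgi and other inner membranes, Slc39a11 and Slc39a9, fell as well. Slc39a11 read 531 and 552 in pseudopodia, against 1281 and 1059 in cell bodies, a log2 difference of -1.10 (SE 0.15, adjusted p = 0.0194 by limma). Slc39a9 read 291 and 323 in pseudopodia, against 591 and 506 in cell bodies, a log2 difference of -0.83 (SE 0.15, adjusted p = 0.0308 by limma). Slc39a9 had the difference nearest to 0 of the 13 that fell, and its other 2 probe sets lay at or near the floor of 20 on all 4 arrays.

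Among the plasma membrane importers of the Slc39a1 to Slc39a3 branch, no brightest probe set passed. Slc39a1 read 387 and 514 in pseudopodia, against 507 and 649.5 in cell bodies, an overlap between compartments, at a log2 difference of -0.36 (SE 0.21, adjusted p = 0.322 by limma). Slc39a3 read 221 and 310.3 in pseudopodia, against 416 and 368 in cell bodies, a log2 difference of -0.58 (SE 0.21, adjusted p = 0.138 by limma), and the mean of its probe sets was called (adjusted p = 0.0413). Its other probe set, which read 173 and 229 in pseudopodia, against 570.4 and 428 in cell bodies, fell by 1.30 (SE 0.23, adjusted p = 0.0370 in the fit over single probe sets). Slc39a5 was near the filter on all arrays, with overlapping compartments and a log2 difference of 0.19 (SE 0.24, adjusted p = 0.639 by limma).

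Iron carriers split by gene. Slc11a2, the proton-coupled importer of ferrous iron at the plasma membrane and in endosomes, fell at a log2 difference of -1.49 (SE 0.13, adjusted p = 0.0166 by limma). Its brightest probe set read 152 and 157 in pseudopodia, against 427 and 445 in cell bodies. All 4 of its probe sets passed on their own, with log2 differences of -1.70, -1.49, -1.27 and -1.23 and an adjusted p of 0.0241 for each, which makes it the member with the most probe sets behind its call. The exporter ferroportin, Slc40a1, read 345 and 227 in pseudopodia, against 356 and 92.6 in cell bodies. Its cell body arrays lay farther apart than the means of the compartments (log2 difference 0.62, SE 0.66, adjusted p = 0.583 by limma), and the sign turned to -0.34 without cell body replicate 2. Slc11a1, the carrier of macrophage phagosomes, was dim and overlapped, at 47.5 and 66.0 in pseudopodia, against 67.1 and 33.3 in cell bodies, at a log2 difference of 0.24 (adjusted p = 0.716 by limma) that turned to -0.26 without the same array.

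Of the copper carriers, Slc31a1, the main copper importer of the plasma membrane, fell. It read 323 and 258 in pseudopodia, against 588 and 486 in cell bodies, a log2 difference of -0.89 (SE 0.18, adjusted p = 0.0411 by limma over genes). In the fit over single probe sets, the same probe set had an adjusted p of 0.0545 and the other one a log2 difference of -0.55 (adjusted p = 0.0788), so the call did not hold there. Slc31a2, a related protein of endosomes and lysosomes, read 61.8 and 29.5 in pseudopodia, against 83.9 and 61.0 in cell bodies, and was not called (log2 difference -0.73, SE 0.38, adjusted p = 0.275 by limma). Its other probe set, nearly as bright, read 40.9 and 65.9 in pseudopodia, against 54.6 and 53.2 in cell bodies. There the log2 difference was -0.051 (adjusted p = 0.921 in the limma fit over single probe sets).

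Of the magnesium carriers, Slc41a1, a sodium-magnesium exchanger of the plasma membrane, fell. It read 327 and 336 in pseudopodia, against 717 and 658 in cell bodies, a log2 difference of -1.05 (SE 0.13, adjusted p = 0.0178 by limma). Slc41a2 read 134 and 136 in pseudopodia, against 228 and 159 in cell bodies, a log2 difference of -0.50 (SE 0.21, adjusted p = 0.180 by limma). Slc41a3, known from mitochondria, read 87.9 and 93.0 in pseudopodia, against 129.7 and 102 in cell bodies, a log2 difference of -0.34 (SE 0.17, adjusted p = 0.245 by limma). The arrays of the compartments did not overlap for any of the 3 genes, which on its own was common on these arrays (60.8% of tested genes).

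When every probe set was tested on its own, 18 of the 39 carrier probe sets above the filter fell and 0 rose, against 7.44% and 4.30% of 22519 probe sets in all (11.7% called in either direction). Of the 10 carrier genes with more than 1 probe set above the filter, 0 had differences of both signs. Since all probe sets share the 4 arrays, they are not replicates of the compartments.

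**Figure D4:**
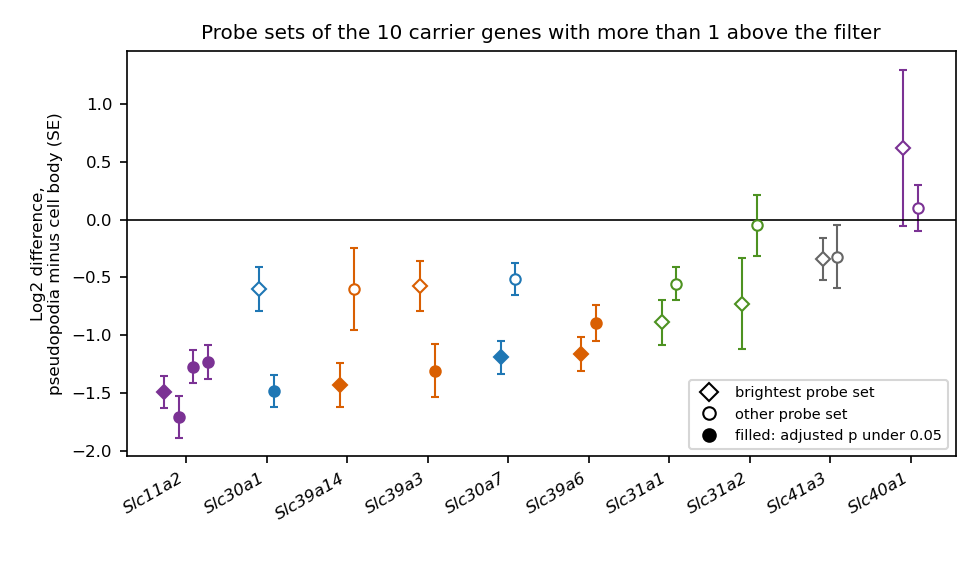
Log2 difference, pseudopodia minus cell body, of each probe set (bars are the SE of the limma fit over probe sets) for the 10 carrier genes with more than 1 probe set above the filter. Diamonds are the brightest probe set of a gene and circles its others, filled where the adjusted p was under 0.05. All 4 probe sets of Slc11a2 are filled, while Slc30a1 and Slc39a3 are filled at their dimmer probe set only.

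The 5 carrier genes under the filter were Slc30a8, Slc30a10, Slc39a2, Slc39a4 and Slc39a12. Slc30a8, which supplies insulin granules of the pancreas, and Slc39a12, known from brain, read the floor of 20 on all 4 arrays, which is only an upper bound. Slc30a10, known as a manganese exporter, read 38.0 and 37.1 at its brighter probe set in pseudopodia, against 28.4 and 31.4 in cell bodies. The gut zinc importer Slc39a4 read 47.4 and 42.1 in pseudopodia, against 32.9 and 25.3 in cell bodies, and Slc39a2 read 34.2 and 29.4 in pseudopodia, against 35.4 and 32.8 in cell bodies. These genes entered no test. In all, 8 of the 56 carrier probe sets lay at the floor on every array.

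Of 40 tested genes that handle the same metals without belonging to these families, 6 fell and 1 rose, which is 17.5% called, near the 14.6% over all tested genes (5.92% higher and 8.69% lower). The 1 that rose was Ncoa4. Of 4 tested genes of zinc binding and sensing, 0 were called. The metallothioneins Mt1 and Mt2, small proteins that bind zinc and copper, differed by -0.18 (adjusted p = 0.459) and -0.11 (adjusted p = 0.635 by limma) at intensities of 7605 to 10903, near the top of the scale, which may hide a difference. A second, dim probe set of Mt1 read 45.5 and 43.4 in pseudopodia, against 302 and 162 in cell bodies, and fell by 2.29 (SE 0.32, adjusted p = 0.0272 in the fit over single probe sets). On the log2 scale, the brain-enriched Mt3 differed by 0.50 (adjusted p = 0.188) and Mtf1 by -0.12 (adjusted p = 0.725 by limma).

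Of 14 tested iron genes, 2 fell and 1 rose (21.4% called, against 14.6% of all tested genes), with a median log2 difference of -0.18. The metalloreductase Steap3, which reduces iron in endosomes, and Steap1, a related protein that lacks the reductase domain, fell, while the metalloreductase Steap2 was not called. Steap2 differed by -0.36 on the log2 scale (SE 0.14, adjusted p = 0.161 by limma), and 2 of its 5 probe sets above the filter had differences of 0.75, which did not pass either. Steap3 read 121 and 137 in pseudopodia, against 387 and 309 in cell bodies, a log2 difference of -1.42 (SE 0.17, adjusted p = 0.0175 by limma). Steap1 fell by 0.96 on the log2 scale (SE 0.15, adjusted p = 0.0237 by limma). Ncoa4, the receptor that takes ferritin to the lysosome, read 809 and 679 in pseudopodia, against 453 and 459 in cell bodies, a rise of 0.70 (SE 0.15, adjusted p = 0.0437 by limma). The other Ncoa4 probe set differed by -0.58 (adjusted p = 0.107), and the brighter one did not pass in the fit over single probe sets (adjusted p = 0.0596). The transferrin receptor Tfrc differed by -0.28 on the log2 scale (adjusted p = 0.384 by limma) and ferritin heavy chain Fth1, at intensities of 11551 to 12269 near the top of the scale, one of 0.014.

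Of 10 tested copper genes, 1 fell and 0 rose, no larger a share than the 14.6% called over all tested genes, with a median log2 difference of 0.035. It was Sco2, which helps to place copper in cytochrome c oxidase in mitochondria, at 905 and 1233 in pseudopodia, against 2287 and 2243 in cell bodies (log2 difference -1.10, SE 0.19, adjusted p = 0.0273 by limma). Its only probe set above the filter is of the kind that can match several transcripts. The copper pump Atp7a differed by 0.34 on the log2 scale (SE 0.38) at its brighter probe set and by -0.65 at the other, neither of which passed. A dim probe set of Atox1 fell by 1.84 (SE 0.36, adjusted p = 0.0449 in the limma fit over single probe sets). Its brighter ones differed by 0.058 and 0.070 and did not pass.

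Of 12 tested magnesium genes, 3 fell and 0 rose, against 8.69% of all tested genes lower and 5.92% higher, with a median log2 difference of -0.18. The fallen genes were Cnnm2 and Cnnm3, of a family of magnesium transport mediators, and Tusc3, which is linked to magnesium uptake and is also a subunit of the oligosaccharyltransferase of the endoplasmic reticulum. On the log2 scale, Cnnm2 fell by 1.48 (SE 0.23, adjusted p = 0.0228) and Tusc3 by 1.35 (SE 0.15, adjusted p = 0.0166 by limma). Cnnm3 fell by 1.37 (SE 0.19, adjusted p = 0.0194 by limma) at its brightest probe set, while its other 3 had log2 differences of -0.66, -0.064 and 0.85, none of which passed. The dimmest Cnnm4 probe set above the filter read 20 and 22.2 in pseudopodia, against 97.1 and 84.1 in cell bodies. It fell by 2.05 (SE 0.16, adjusted p = 0.0241 in the limma fit over single probe sets), but passed the filter through its cell body arrays alone. The brighter Cnnm4 probe sets had -0.97 and -0.70 and did not pass. The magnesium channel Trpm7 differed by 0.12 on the log2 scale (adjusted p = 0.601 by limma).

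Several measures of the samples lay beside these differences. Among the controls for 3′ over 5′ signal, those of the messages Actb, Gapdh and pyruvate carboxylase averaged higher in pseudopodia. On the log2 scale Actb gave 0.56 and 0.65 in pseudopodia and 0.37 and 0.36 in cell bodies. Gapdh gave -0.075 and -0.066 in pseudopodia and -0.095 and -0.098 in cell bodies, a small gap with no overlap. Pyruvate carboxylase (Pcx) gave 2.61 and 2.32 in pseudopodia and 2.54 and 2.25 in cell bodies, an overlap. The 18S ribosomal RNA ran the other way, at 2.46 and 1.35 in pseudopodia and 2.77 and 3.06 in cell bodies. The 12 fibroblast markers summed to intensities of 56964 and 57047 on the pseudopodia arrays and to 73715 to 81209 on the cell body arrays, with Thy1 and Fap at the floor throughout. Of the 9 that were tested, 4 fell and 0 rose, against 8.69% lower and 5.92% higher of all tested genes. All 9 had differences below 0, and their median log2 difference was -0.69, beside -0.76 for the carriers. These markers were uneven. Lgals1, Vim and S100a4 lay at -0.095, -0.098 and -0.12, and the others from -0.64 (Fn1) to -1.33 (Col1a1). Sums of 8 epithelial markers were 2648 to 2745 in pseudopodia and 2985 to 3812 in cell bodies, with Krt18 at the floor on all arrays. Most of each sum came from 1 probe set of Krt14, ending in _x_at. It read 1980 and 1835 in pseudopodia and 2665 and 2093 in cell bodies. Sums of 6 haematopoietic markers were 263 to 308 in pseudopodia and 298 to 364 in cell bodies, with Itgam at the floor on all arrays. Their part in the results was not tested. Median intensities of non-control probe sets were 41.2 and 45.6 in pseudopodia and 44.3 and 40.5 in cell bodies, and 30.5% to 34.8% of probe sets lay at the floor.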

How the data were processed

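RNA of 2 pseudopodia and 2 cell body samples was read on 1 Affymetrix Mouse430_2 array each, per the labels' protocols and the array records. The deposited table holds linear probe set intensities with a floor of 20. How the authors summarised and scaled them, and with what software, is not stated in the labels or array records, and the number of arrays limits the precision. The array records differ between arrays only in fluidics module and scan minute, so no recorded batch could be fitted.

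Computed here were log2(intensity + 1), with no further scaling, on 45037 non-control probe sets. Differences on this scale understate the change of dim genes. Each gene was represented by its brightest probe set with 1 symbol, genes under a mean log2 of 5.42 were left out, and limma 3.58.1 in R 4.3.3 (lmFit, eBayes, two-sided, no covariate, 2 residual and 2.90 prior degrees of freedom) was run with Benjamini-Hochberg adjustment over 11320 genes. A second fit took each of 22519 probe sets on its own. Simulated data, drawn as independent normal values for each array and without a floor, served only as a check of the code. Since 4 arrays can be split in pairs in 3 ways, no permutation test was run. All 32 carrier genes matched a RefSeq gene table by gene ID.

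The carriers, gene lists and tests were chosen with earlier results of these data known. Every tested carrier is named, with full values where it was called, where a probe set was called, or where its arrays lay at least 2-fold apart. Called genes of the metal handling lists are named as well. Genes named outside these rules, and the promoters shown, were chosen after their values were seen. Alternatives were another pseudocount, no filter or a stricter one (log2 of 7), quantile normalization, median centring, the mean of a gene's probe sets, no _x_at or _s_at probe sets, a replicate block, a trended robust prior and each array left out.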

Additional observations from a re-analysis of the deposited data

How the results depend on the processing

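With the filter and all 4 arrays, 12 to 16 carrier genes were called and 11 to 13 of the 13 remained. Slc39a6 and Slc39a9 were lost with the mean of a gene's probe sets, and Slc39a7 could not be tested without _s_at probe sets. The count of carriers called higher went to 1, Slc30a4, with log2(intensity + 16), a stricter filter, quantile normalization, median centring, the mean of probe sets, the replicate block and the trended robust prior. Carrier probe sets called higher went to 1 with the stricter filter and with the trended robust prior, which also called 2575 genes in all, 1092 higher and 1483 lower, against 1654, 670 and 984. Without the filter, 2 genes were called, 0 higher and 2 lower, with 0 carrier genes and 0 carrier probe sets. The cause was not tested. That fit held 18193 genes, against 11320, and its SEs moved both ways. The SE of Slc11a2 went from 0.13 to 0.037, and that of Slc11a1 from 0.37 to 0.49. Carriers lower at an unadjusted p under 0.05 by limma went from 16 to 13. With 1 array left out, all counts were 0 to 0, where the lone array is assumed to vary like the other compartment's, and fewer samples entered the fit. Carriers that turned in sign were Slc39a5, at -0.12 to 0.51 with its lowest value without pseudopodia replicate 2, and Slc11a1 and Slc40a1, at -0.26 to 0.73 and -0.34 to 1.59 with their lowest values without cell body replicate 2. Same-numbered samples deviated together across genes (r = 0.34, 2 pairs). The labels give each pair only a shared number, so whether its samples came from the same preparation is not known. The replicate block called 15 carrier genes, against 13. Signal near the floor limits Slc30a2, Slc39a5, Slc31a2 and Slc11a1.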

Other observations

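Of the tested carriers with a promoter window in the table, at least 1 core of the metal response element lay in a window of 3 of 10 genes that fell and of 10 of 13 that were not called. A gene was counted if any of its windows held a match, so the 21.4% of all single windows is no background for these counts. A share over all genes was not computed. Slc11a2, Slc39a6 and Slc39a14, which fell, and Slc40a1, which was not called, had no window. This split was noticed in these data and not tested, and it is given as counts only.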
